A study of Mus musculus with 32 samples.

Results

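The comparison set 3 primary tumours of the OSE-BPR mouse model against 4 primary tumours of the Pax8-BPR model, 7 of the 32 RNA-seq libraries of the series, chosen by their titles alone, and it covered all 20000 genes of 55450 in the table that had enough counts to test. Both models carry Brca1 fl/fl, Trp53 fl/fl and K18GT121 Tg/+, the last a transgene that expresses a fragment of SV40 T antigen behind a Cre-removable stop under keratin 18 control and inhibits the Rb proteins. In OSE-BPR, adenovirus carrying Cre was placed under the bursa that encloses the ovary, so that the recombining cells lay in the ovarian surface epithelium. In Pax8-BPR, tamoxifen switched on Pax8-CreERT2 Tg/+, a transgene active in secretory cells of the oviduct, the mouse counterpart of the fallopian tube. All animals were female, tumours were taken at endpoint, months after induction, and ages were not given. The models also differ in strain (OSE-BPR is labelled FVB and Pax8-BPR C57Bl/6), in the Cre source and in tamoxifen treatment, and in these tumours none of these can be told apart from the site of origin. Further libraries used beside them were 5 OSE-BPR and 2 Pax8-BPR allografts, whose source tumours and hosts the labels do not name, 2 primary tumours of Ad-BPR (C57Bl/6, the same 3 alleles as OSE-BPR, with adenoviral Cre injected into the oviduct), and 3 normal ovaries and 3 normal oviducts of wild-type females labelled C57Bl/6. Also in the series were 4 Ad-BPR allografts, 3 Ovgp1-BPR primary tumours and 3 Ovgp1-BPR allografts. Ovgp1-BPR is a C57Bl/6 model with Trp53 KozR172H ki/+ and Ovgp1-CreERT2. All of these libraries entered the shared estimate of spread and the reading of strain labels below. Summed levels of Ovgp1-BPR primary tumours are given for some gene lists.

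High-grade serous ovarian carcinoma is thought to arise mostly from secretory cells of the fallopian tube, and in some cases from the surface epithelium of the ovary. The oviduct develops from the Müllerian duct, and its epithelium uses transcription factors such as Pax8, Foxa2 and Sox17. The ovarian surface epithelium derives from the coelomic lining of the gonadal ridge, is continuous with mesothelium, and shares with the gonad factors such as Wt1, Gata4, Nr5a1 and Lhx9. BRCA1 and p53 loss together with a disabled Rb pathway are frequent in the human tumour.

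Depth was 13.99 to 20.34 M assigned counts in the 7 libraries, with 21808 to 23945 genes that had a count. Levels below are CPM (counts scaled to a common library total) after TMM scaling, listed in the order of replicates 1 to 3 for OSE-BPR and 1 to 4 for Pax8-BPR. A log2 fold change is the difference of the groups on a log2 scale, OSE-BPR minus Pax8-BPR, with its standard error (SE), so a negative value means lower in OSE-BPR. A gene is called where the edgeR quasi-likelihood test gave an adjusted p under 0.05. Spearman's correlation across genes was 0.915 to 0.963 between OSE-BPR tumours, 0.904 to 0.946 between Pax8-BPR tumours and 0.782 to 0.853 between the models. Pax8-BPR replicate 2 stood apart from the other 3 Pax8-BPR tumours (0.904 to 0.916 with it, 0.938 to 0.946 without it), with 12.7 CPM of Wt1 against 214 to 311 and 237 CPM of Sox17 against 2.03 to 17.0. No statement in the labels ties a tumour to a pool or a second sample of one animal, so p-values measure only the spread between libraries, estimated over all 26 tumour libraries of the series.

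To read the normal libraries, genes were picked that split all 8 OSE-BPR libraries from all 18 C57Bl/6 tumours of the series. The limits were at least 5 CPM on one side and at most 1 CPM on the other. OSE-BPR is the only FVB model, so these genes cannot tell strain from model and cannot check the tumour labels. Of the genes picked, 13 were high in OSE-BPR, Pla2g4e (named below) among them. The other 2, Trim12a and Gm42047, were high in the C57Bl/6 tumours. The 6 normal libraries, labelled C57Bl/6, read with the OSE-BPR libraries at 13 of these 15 genes, including both Trim12a and Gm42047, each at most 1 CPM in all 6. Comparisons with normal tissue are therefore given on their own below.

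Of the 20000 genes tested, 6552 (32.8%) were called, 3217 (16.1%) higher and 3335 (16.7%) lower in OSE-BPR, and 8706 had an unadjusted p under 0.05. Every count of list members below stands beside these shares of 16.1% and 16.7%. An absolute log2 fold change of at least 1 was reached by 5440 (27.2%). The fold difference was under 2 for 1112 of the called genes and at least 10 for 2398, of which 927 were higher and 1471 lower in OSE-BPR. The groups did not overlap at 6746 genes (33.7%), among them 5287 of the called genes. Every OSE-BPR tumour had 0 counts of 362 called genes, and every Pax8-BPR tumour had 0 counts of 140. On the TPM scale the split moved: with log2(TPM + 1), 4179 genes were higher and 2361 lower in OSE-BPR (63.9% against 49.1% higher), with a shift of 0.19 in the median gene, and with log2(TPM + 0.1) 4159 were higher and 2491 lower, with a shift of 0.24. The count fell to 4000 without OSE-BPR replicate 3, and to 3676 when the 7 libraries were fitted alone. Named genes no longer called in that fit included Wt1, Aldh1a1, Cdh6, Clca3b, Wnt6, Sox17, Msx1, Fn1, Nr5a1, Hoxb8, Brca1 and Cdkn1a, among others.

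The engineered genes were read first. Trp53 (chr11:69580359-69591873, plus strand, GRCm38) read 12.4, 8.37 and 14.5 CPM in OSE-BPR against 42.9, 24.9, 22.6 and 29.6 CPM in Pax8-BPR, a log2 fold change of -1.35 ± 0.25 (adjusted p 6.5e-04) with no overlap. Both groups carry the same floxed alleles, and counts over a whole gene do not show whether floxed exons were lost, so these values do not check the deletions. Brca1, needed for homologous recombination, read 17.1, 23.0 and 28.2 CPM against 19.2, 29.8, 70.3 and 66.8 CPM. Those groups overlapped, the log2 fold change was -1.03 ± 0.38 (adjusted p 0.040), and the call was lost when any 1 of OSE-BPR replicates 1 to 3 (adjusted p 0.13, 0.095 and 0.057) or Pax8-BPR replicates 3 and 4 (0.13 and 0.12) was left out. Rb1 was not called (20.9 to 33.3 CPM against 18.5 to 33.7), nor was Cdkn2a, which encodes p16 and p19Arf (177 to 272 against 187 to 318). Krt18, whose promoter drives the T antigen transgene, read 622, 457 and 525 CPM against 1441, 283, 1221 and 899, overlapped and was not called (adjusted p 0.21). Xist was present in all 7 libraries, at 1050 to 3023 CPM in OSE-BPR and 424 to 1150 CPM in Pax8-BPR.

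Transcription factors of the Müllerian epithelium were the first lineage group. Of 13 on the list, 9 were lower in OSE-BPR and 1 was higher, and the list's median log2 fold change was -6.61 (-6.45 with the gene at 0 in OSE-BPR set at its bound), against -0.01 over all genes tested. The summed level was 126 to 438 CPM in OSE-BPR, 365 to 823 CPM in Pax8-BPR and 423 to 1397 CPM in Ovgp1-BPR primary tumours. Pax8 (chr2:24420560-24475599, minus strand), the factor that marks the secretory cell and drives Cre in the Pax8-BPR model, read 0.334, 0.164 and 0 CPM in OSE-BPR. In Pax8-BPR it read 167, 163, 24.1 and 67.0 CPM, a log2 fold change of -9.28 ± 1.57 (adjusted p 2.8e-04). The deposited counts do not separate the endogenous gene from any Pax8 sequence of the transgene. Ad-BPR tumours, which have no such transgene, read 99.3 and 162 CPM. Foxa2, a pioneer factor of glandular epithelium, had 0 counts in every OSE-BPR tumour and read 3.45, 23.1, 25.2 and 12.3 CPM in Pax8-BPR, at least 87.6-fold lower in OSE-BPR when 3 counts per library are allowed (adjusted p 3.2e-05). Foxj1, the regulator of motile cilia, read 1.61, 0.164 and 0.122 CPM against 29.3, 13.8, 339 and 153 (log2 fold change -7.76 ± 1.55, adjusted p 0.0011). In all 3 of these factors every OSE-BPR tumour lay below every Pax8-BPR tumour.

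Pax8-BPR replicate 2 carried much of the rest of that list. Sox17 read 17.0, 237, 6.45 and 2.03 CPM in Pax8-BPR against 2.49 to 2.84 CPM in OSE-BPR, Msx1 1.62, 113, 0.740 and 4.66 against 0.182 to 0.656, and Msx2 0.141, 91.7, 4.49 and 0.214 against 0 to 0.268. Without that tumour none of these homeobox and Sox factors kept its call, with log2 fold changes of -1.66 for Sox17, -2.71 for Msx1 and -4.17 for Msx2 in place of -4.61, -6.39 and -8.05. Without it, 5 members of the list in place of 9 were lower in OSE-BPR. The number lower was 4 when the 7 libraries were fitted alone, and also 4 with log2(TPM + 1). Msx2 also lost its call without OSE-BPR replicate 2 or 3 (adjusted p 0.053 and 0.057). Emx2, needed for the Müllerian duct and the gonad alike, was the member higher in OSE-BPR, at 93.7, 208 and 270 CPM against 18.3, 64.3, 31.6 and 36.7 (log2 fold change 2.34 ± 0.52, adjusted p 0.0022). Esr1, the oestrogen receptor, was not called (23.0 to 165 CPM against 19.3 to 105), and neither was Pgr, the progesterone receptor (0.182 to 0.656 CPM against 0.476 to 13.6, adjusted p 0.052).

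Coelomic and gonadal factors ran the other way, with 10 of 17 higher in OSE-BPR, 1 lower and a median log2 fold change of 2.34. Their summed level was 1870 to 3729 CPM in OSE-BPR, 291 to 477 CPM in Pax8-BPR and 1670 to 2161 CPM in Ovgp1-BPR primary tumours. Wt1 (chr2:105126529-105173616, plus strand), a zinc finger factor of coelomic epithelium and gonad, read 613, 999 and 1023 CPM against 270, 12.7, 311 and 214, with a log2 fold change of 2.12 ± 0.53 (adjusted p 0.0050), a call lost when the 7 libraries were fitted alone (log2 fold change 2.09). It was expressed in both models, and its lowest OSE-BPR tumour lay above its highest Pax8-BPR tumour. Gata4, required for the genital ridge, read 514, 343 and 589 CPM against 24.7, 1.65, 0.370 and 31.7 (5.04 ± 0.85, adjusted p 2.9e-04). Lhx9, a LIM factor of the early gonad, read 12.1, 496 and 830 CPM against 1.06, 0.110, 0.370 and 0.161 (10.09 ± 1.71, adjusted p 2.9e-04), with OSE-BPR replicate 1 far below the other two. Nr0b1 (Dax1) read 48.6, 128 and 111 CPM against 0.845, 0, 0 and 0.107 (8.76 ± 1.97, adjusted p 0.0027). Gata6 and Lhx2 were also higher, at 63.5 to 147 against 8.93 to 22.8 CPM and at 15.0 to 44.4 against 1.07 to 6.18 CPM, the latter with an adjusted p of 0.053 to 0.059 when OSE-BPR replicate 2 or 3 or Pax8-BPR replicate 1 or 4 was left out. Nr5a1 (Sf1), which switches on steroid enzymes, read 209, 183 and 295 CPM against 30.0, 0.0550, 0.106 and 0.803. Its log2 fold change of 4.90 ± 1.76 (adjusted p 0.038) became 9.44 without Pax8-BPR replicate 1, and the call was lost without any 1 of the other Pax8-BPR tumours or OSE-BPR replicate 2 or 3 (adjusted p 0.059 to 0.084). Foxl2 and Tcf21 were not called, with overlapping groups.

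**Figure D1:**
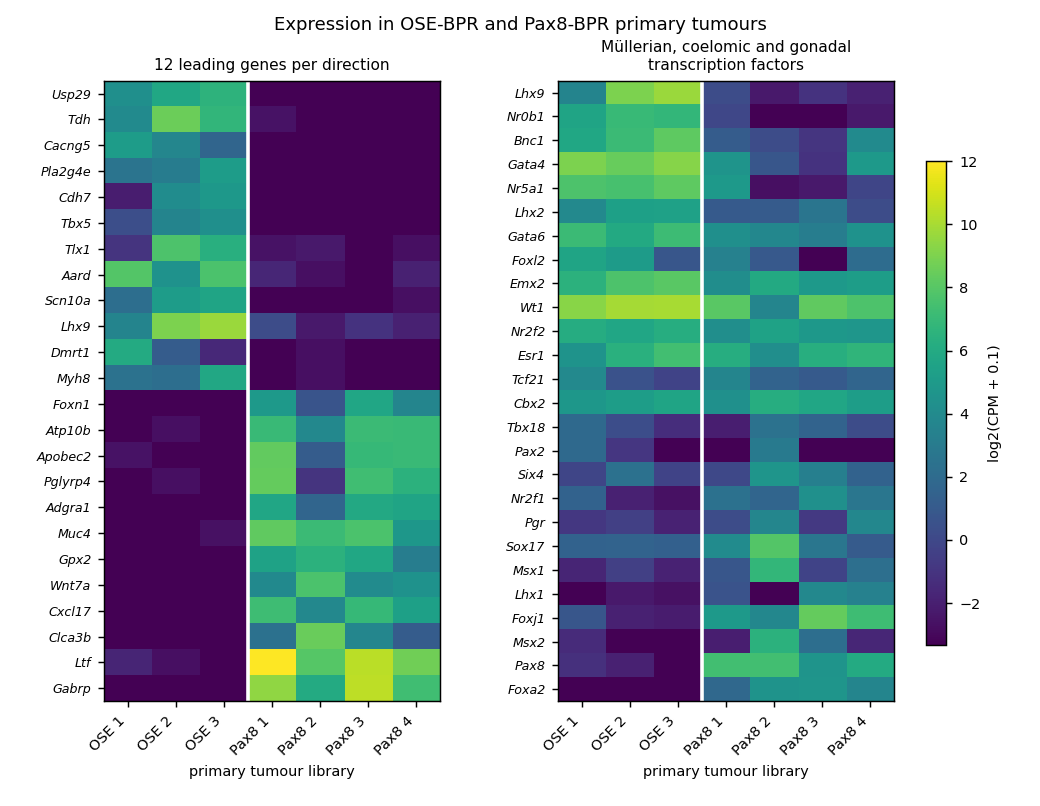
Level of each gene (rows, log2 of CPM + 0.1, colour scale) in each of the 3 OSE-BPR and 4 Pax8-BPR primary tumours (columns). At left are the 12 genes with the largest differences in each direction, at right the lineage transcription factors ordered by log2 fold change (2 members not drawn), where Pax8 and Foxa2 are dark in every OSE-BPR tumour and Wt1 is bright in 6 of 7 tumours.

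Genes of the ovarian surface epithelium and mesothelium with a call in the main fit were all higher in OSE-BPR. Of 19 markers 13 were higher in OSE-BPR and 0 lower, with a median log2 fold change of 3.68. These were 13 and 2 without Pax8-BPR replicate 2, and 13 and 1 with DESeq2. Upk3b, a uroplakin of mesothelial cells, read 514, 1075 and 974 CPM against 23.0, 26.9, 1.16 and 26.3 (5.46 ± 0.99, adjusted p 5.2e-04). Bnc1, a zinc finger protein of the same cells, read 55.4, 140 and 293 CPM against 2.11, 1.10, 0.423 and 15.8 (5.05 ± 1.06, adjusted p 0.0015). Gpm6a read 65.8, 66.0 and 174 CPM against 0.740 to 4.72 (5.56 ± 0.97). Muc16, the CA125 antigen, read 34.5, 66.1 and 86.4 CPM against 5.07, 2.26, 8.51 and 3.10 (3.72 ± 1.15, adjusted p 0.018, and 0.055 without OSE-BPR replicate 3). Msln, mesothelin, did not go with the others: it read 13.5, 28.2 and 66.5 CPM in OSE-BPR against 143, 18.3, 334 and 413 in Pax8-BPR and was not called (adjusted p 0.056). The summed level of the 19 markers was 4827 to 6960 CPM in OSE-BPR and 1027 to 2833 CPM in Pax8-BPR. In the 3 primary tumours of Ovgp1-BPR, a C57Bl/6 model with Trp53 KozR172H ki/+ and Ovgp1-CreERT2, the same sum was 3844 to 6510 CPM.

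Gonadal cell markers were mixed. Amhr2, the receptor for anti-Müllerian hormone, read 454, 420 and 617 CPM against 10.8, 0.385, 0.317 and 0.963, a log2 fold change of 7.35 ± 1.00 (adjusted p 4.1e-05). Inha, the inhibin alpha subunit, read 187, 41.0 and 60.9 CPM against 25.2, 4.68, 3.91 and 2.57 (3.41 ± 1.17, adjusted p 0.030), a call lost without OSE-BPR replicate 1 (adjusted p 0.12) or without any 1 of Pax8-BPR replicates 2 to 4 (0.066 to 0.075). Its partner Inhba, a subunit of activin, was lower, at 3.34, 0.985 and 1.16 CPM against 47.2, 40.1, 68.0 and 57.1 (-4.86 ± 0.93, adjusted p 7.4e-04). On the list of 16 granulosa, theca and luteal genes 4 were higher and 3 lower, or 2 and 4 without OSE-BPR replicate 1. Of all genes 16.1% were higher and 16.7% lower. The steroid genes Star and Cyp11a1 were not called, and Pax8-BPR replicate 1 read highest of the 4 Pax8-BPR tumours for both, at 139 and 47.4 CPM. Of 9 oocyte genes 3 were higher in OSE-BPR and 1 lower (1 and 1 without OSE-BPR replicate 3), among them Ooep at 0.803, 4.05 and 37.7 CPM against 0.493, 2.15, 0 and 0.107, a call that ended without OSE-BPR replicate 3 (log2 fold change 1.81 in place of 4.35, adjusted p 0.34).

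The largest differences toward OSE-BPR, among genes with at least 10 CPM on average and no overlap, went to genes of several functions. Usp29, a ubiquitin protease, read 20.0, 55.8 and 97.1 CPM and had 0 counts in all 4 Pax8-BPR tumours, at least 332-fold higher (adjusted p 5.8e-04). Tdh, threonine dehydrogenase, an enzyme used by mouse embryonic stem cells, read 16.1, 372 and 107 CPM against 1 count in all in Pax8-BPR, a ratio of 12393 with a 95% exact interval of 2224 to 489560 that covers counting error only. Further genes at 0 in every Pax8-BPR tumour were Cacng5, a calcium channel subunit (35.9, 12.8 and 3.10 CPM, at least 99.2-fold), Pla2g4e, a phospholipase (5.82, 8.70 and 35.6 CPM, at least 96.0-fold), Cdh7, a cadherin (0.134, 17.6 and 28.9 CPM, at least 89.3-fold), and Tbx5, a T-box factor (1.20, 11.8 and 19.9 CPM, at least 63.1-fold). Aard read 237, 22.2 and 202 CPM against 0 to 0.211, and Scn10a, a sodium channel, 4.48, 35.1 and 49.2 CPM against 0 to 0.0535. Tlx1, a homeobox factor, read 210 and 79.5 CPM in OSE-BPR replicates 2 and 3 and 0.401 CPM in replicate 1, against 0 to 0.110. Dmrt1, a factor of the testis, went the opposite way within OSE-BPR, at 66.4, 2.08 and 0.243 CPM against 0 to 0.0550. Its call (adjusted p 0.031) was lost without OSE-BPR replicate 1 (adjusted p 0.17) or any 1 Pax8-BPR tumour (0.070 to 0.074). Myh8, a skeletal myosin, read 5.49, 4.49 and 58.0 CPM against 0 to 0.0550.

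The largest differences toward Pax8-BPR were chosen in the same way. Gabrp, a GABA receptor subunit of glandular epithelia, had 0 counts in every OSE-BPR tumour and read 706, 65.5, 1446 and 158 CPM in Pax8-BPR, at least 3256-fold lower in OSE-BPR (adjusted p 0.0063). Ltf, lactoferrin, an oestrogen-responsive secretory protein of the oviduct, read 0.201, 0.0547 and 0 CPM against 7304, 245, 1369 and 416 (log2 fold change -14.68 ± 3.77, adjusted p 0.0061). Cxcl17, a mucosal chemokine, read 149, 13.9, 123 and 41.8 CPM and Gpx2, an epithelial glutathione peroxidase, 46.0, 93.2, 56.8 and 8.99 CPM, both with 0 counts in OSE-BPR and at least 449-fold and 281-fold lower there. Muc4, a membrane mucin, read 309, 138, 203 and 27.7 CPM against 1 count in all 3 OSE-BPR tumours. Clca3b read 5.14, 368, 12.9 and 2.09 CPM and Wnt7a 15.6, 203, 16.6 and 22.6 CPM, with Pax8-BPR replicate 2 the high one in each and 0 counts in OSE-BPR. The same tumour was the low one for Pglyrp4 (328, 0.385, 155 and 91.8 CPM), Apobec2 (320, 2.09, 122 and 131 CPM), Adgra1 (54.5, 3.14, 60.0 and 49.6 CPM) and Foxn1, a factor of skin and thymus epithelium (29.7, 1.49, 53.8 and 12.4 CPM).

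Usp29 sits head to head with Peg3, a paternally expressed imprinted gene, on chromosome 7, and the neighbourhood was examined after the value of Usp29 was seen. Peg3 (chr7:6703892-6730431, minus strand), which encodes a zinc finger protein, read 529, 1332 and 2696 CPM in OSE-BPR against 4.65, 1.71, 5.29 and 1.39 CPM (8.87 ± 1.72, adjusted p 8.7e-04). Zim1 (chr7:6671269-6696450, minus strand), an imprinted zinc finger gene next to Peg3, read 16.5, 384 and 724 CPM against 0.352, 3.08, 0.264 and 0 (8.64 ± 1.37, adjusted p 1.7e-04). Within each of the 3 genes replicate 1 was the lowest OSE-BPR tumour and replicate 3 the highest. Every other gene tested in the neighbourhood also had a positive log2 fold change, smaller than in those 3 genes. On one side the genes called higher included Zfp787 (1.03 ± 0.20), Zfp444 (1.08 ± 0.26), Zfp667 (1.28 ± 0.29) and Zfp583 (1.34 ± 0.40). Zfp28 (0.43 ± 0.29, adjusted p 0.27), Gm3854 (adjusted p 0.50) and Olfr1349 (adjusted p 0.29) on the same side were not called. A shift of the whole region was not tested. On the other side Zfp954 had a log2 fold change of 0.89 ± 0.30 and Zfp773 2.22 ± 0.93 (adjusted p 0.072). The predicted gene Gm44697 on that side read 0.468, 1.09 and 0.608 CPM against 1 count in all 4 Pax8-BPR tumours (adjusted p 0.0028), and Aurkc, a kinase, read 0.109 to 0.912 CPM against 2 counts in all (adjusted p 0.092). The start regions of Peg3 and Usp29, 250 bases before to 50 after each start in RefSeq (GRCm38.p6), share 263 bases on opposite strands and are shown because both genes were near or at 0 in Pax8-BPR together. The capitals mark TGACGTCA, the cyclic AMP response element, which reads the same on both strands.
Peg3, chr7:6730370-6730669, minus strand: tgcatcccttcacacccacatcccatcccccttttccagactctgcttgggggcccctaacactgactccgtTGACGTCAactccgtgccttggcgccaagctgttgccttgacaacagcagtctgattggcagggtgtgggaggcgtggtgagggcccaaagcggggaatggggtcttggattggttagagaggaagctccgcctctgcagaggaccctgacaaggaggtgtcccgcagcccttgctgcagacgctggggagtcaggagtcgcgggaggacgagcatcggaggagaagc
Usp29, chr7:6730333-6730632, plus strand: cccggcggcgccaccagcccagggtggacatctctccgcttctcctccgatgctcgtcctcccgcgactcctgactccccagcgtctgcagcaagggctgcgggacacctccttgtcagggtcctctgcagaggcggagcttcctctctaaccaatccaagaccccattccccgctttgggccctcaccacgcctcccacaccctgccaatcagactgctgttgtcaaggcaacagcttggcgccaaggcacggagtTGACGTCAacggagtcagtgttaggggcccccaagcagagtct
The motif stands once in each window, at the same place in the genome, and 588 of 32851 promoter windows of that length (1.79%) hold it. No binding was measured.

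Imprinted and oncofetal genes as a list did not share one direction: of 19 on it 4 were higher and 3 lower in OSE-BPR, near the shares over all genes. Igf2, a fetal growth factor, read 40.5, 620 and 265 CPM against 2.75, 9.52, 3.96 and 2.57 (6.03 ± 1.44, adjusted p 0.0038). H19, its imprinted neighbour, read 68.6, 841 and 326 CPM against 21.6, 90.4, 12.9 and 6.21 (3.65 ± 1.00, adjusted p 0.0088, and 2.59 with adjusted p 0.066 without OSE-BPR replicate 2). Meg3, a maternally expressed long RNA, was lower, at 0.401, 0.875 and 0.304 CPM against 28.8, 78.7, 112 and 24.2 (-6.82 ± 1.37, adjusted p 0.0011). Hmga2, an oncofetal chromatin protein, was called lower through 1 tumour: it read 170 CPM in Pax8-BPR replicate 2 and 0.0529 to 1.83 CPM in the other 3, against 0.0608 to 1.20 CPM, and without that tumour its log2 fold change went from -6.57 to -0.84 (adjusted p 0.68). The call was also lost without OSE-BPR replicate 2 or 3 (adjusted p 0.090 and 0.096).

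Hox genes, which set position along the body and along the Müllerian duct, differed by cluster. In the Hoxa cluster 9 of 11 genes were lower in OSE-BPR and in the Hoxb cluster 7 of 8, while in Hoxd 3 of 7 were lower and in Hoxc 1 of 9 was higher. Over all 35 genes that makes 19 lower and 1 higher; these became 12 and 0 without OSE-BPR replicate 3. The summed Hoxa level was 0.870, 0.930 and 0.182 CPM in OSE-BPR and 43.9, 45.6, 29.3 and 10.0 CPM in Pax8-BPR. Hoxa7 read 0, 0.219 and 0.0608 CPM against 4.37, 3.69, 3.49 and 3.16 (-5.14 ± 1.02, adjusted p 0.0010), and Hoxa3 0.0608 to 0.401 CPM against 2.35 to 19.7 (-5.37 ± 1.40, adjusted p 0.0066). Of the genes that pattern oviduct and uterus, Hoxa9 read 0.0704, 6.60, 3.44 and 0.428 CPM in Pax8-BPR against 0 to 0.201 CPM (adjusted p 0.015, and 0.060 and 0.068 without OSE-BPR replicates 2 and 3), and Hoxa11 was not called. The Hoxb sum was 52.0, 9.24 and 1.64 CPM against 87.6, 530, 131 and 106 CPM, with Hoxb2 at 0 to 0.201 CPM against 6.06 to 37.4 (log2 fold change -7.33, adjusted p 2.0e-04) and Hoxb4 at 0.304 to 2.68 CPM against 21.6 to 45.1 (-4.69 ± 0.98, adjusted p 0.0014). OSE-BPR replicate 1 owed 33.3 CPM of its Hoxb sum to Hoxb9, which was not called.

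The Hoxc cluster split the OSE-BPR tumours among themselves. Its sum was 1.40 CPM in replicate 1 and 146 and 347 CPM in replicates 2 and 3, against 15.3 to 28.5 CPM in Pax8-BPR, so that OSE-BPR tumours lay on both sides of the other model. Hoxc6 read 0.535, 52.0 and 148 CPM against 4.13 to 8.45 (3.52 ± 1.27, adjusted p 0.039) and lost its call without any 1 of OSE-BPR replicates 2 and 3 (adjusted p 0.060 and 0.24) or of the Pax8-BPR tumours (0.062 to 0.078). OSE-BPR allografts had the same spread, with Hoxc sums from 0.496 to 208 CPM. Lhx9, Tlx1 and Cdh7 were also lowest in OSE-BPR replicate 1.

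**Figure D2:**
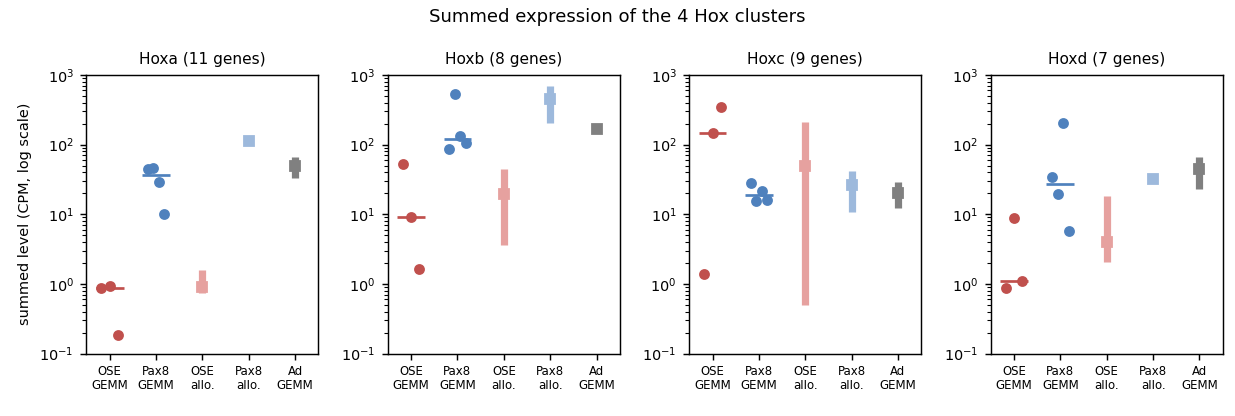
Summed level of each Hox cluster (CPM, log scale). Points are the 3 OSE-BPR and 4 Pax8-BPR primary tumours with a line at the median; bars for allografts (5 OSE-BPR, 2 Pax8-BPR) and for 2 Ad-BPR primary tumours run from the lowest to the highest library with a square at the median. Hoxa sums reach at most 1.56 CPM in OSE-BPR libraries, and the Hoxc sums of the OSE-BPR tumours run from 1.40 to 347 CPM.

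Epithelial genes with a call were mostly lower in OSE-BPR, while several abundant ones had none. Of 33 genes of simple epithelium and junctions 16 were lower and 1 higher, with a median log2 fold change of -2.90. The counts were 19 lower and 1 higher in the fits of 7 and of 12 primary tumours. Without OSE-BPR replicate 1 they were 12 and 1. The summed level of the 33 genes was 3893 to 4187 CPM in OSE-BPR, 4452 to 14098 CPM in Pax8-BPR and 1256 to 4576 CPM in Ovgp1-BPR primary tumours. Cldn7 and Cldn4, claudins of tight junctions, read 0.122 to 1.61 CPM and 0.243 to 6.82 CPM against 175 to 242 CPM and 147 to 1213 CPM, with log2 fold changes of -8.40 ± 1.84 (adjusted p 0.0021) and -7.76 ± 1.95 (adjusted p 0.0053). Cgn, cingulin, another tight junction protein, was higher, at 794, 762 and 778 CPM against 137, 168, 258 and 220 (1.99 ± 0.40, adjusted p 0.0011). Epcam was plentiful in both models and not called (418, 453 and 471 CPM against 1541, 532, 1010 and 1280, adjusted p 0.44), although the groups did not overlap. Krt8 (428 to 518 CPM against 235 to 1824, adjusted p 0.051) and Cdh1, E-cadherin (44.0, 384 and 72.4 CPM against 1299, 296, 1278 and 1175, adjusted p 0.14), were not called either, and in both Pax8-BPR replicate 2 was the lowest Pax8-BPR tumour.

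Basal and squamous genes were lower in OSE-BPR at 9 of 16 members and higher at 1. Their sum was 60.2 to 188 CPM in OSE-BPR, 243 to 4146 CPM in Pax8-BPR and 47.8 to 140 CPM in Ovgp1-BPR primary tumours. Krt5, a basal keratin, read 1.94, 0 and 0 CPM against 396, 12.5, 410 and 7.28 (-8.36 ± 2.15, adjusted p 0.0077, and -14.79 without OSE-BPR replicate 1). Krt6a, a keratin of stressed epidermis, read 0.535, 0 and 0 CPM against 1071, 3.63, 561 and 219 (-11.39 ± 2.52, adjusted p 0.0023). Dsc3, a desmosomal cadherin, ran the other way at 15.1, 43.3 and 6.33 CPM against 0 to 1.21 (5.50 ± 1.28, adjusted p 0.0040). Among 13 oviduct secretory products 7 were lower and 1, Muc16, higher. Their sum was 157 to 2557 CPM in OSE-BPR, 2637 to 17168 CPM in Pax8-BPR and 1777 to 8208 CPM in Ovgp1-BPR primary tumours. Muc1 read 5.75, 2.57 and 1.64 CPM against 968, 254, 79.6 and 193 (-6.82 ± 1.66, adjusted p 0.0042), and Wfdc2, the HE4 marker, 21.5, 8.04 and 0.608 CPM against 99.9, 345, 59.8 and 202 (-4.14 ± 1.16, adjusted p 0.011). Ovgp1, the oviduct glycoprotein, was low in both models (5.08 to 14.9 CPM against 1.45 to 9.63) and not called. Of 16 genes of ciliated cells 3 were lower and 1 higher, beside 16.7% lower and 16.1% higher over all genes. The count ranged from 1 to 5 lower when single tumours were left out. The axonemal genes Dnah5, Tekt1 and Rsph1 were not called.

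Stromal genes were lower in OSE-BPR, and in whole tumours fewer cells of a type and less RNA per cell cannot be told apart. Of 22 fibroblast and matrix genes 16 were lower and 0 higher, with a median log2 fold change of -2.92 and summed levels of 3046 to 6162 CPM against 9080 to 18182 CPM. Ovgp1-BPR primary tumours had sums of 4370 to 5323 CPM. Col1a1 read 512, 67.4 and 22.0 CPM against 3458, 3396, 3853 and 1783 (-3.96 ± 1.03, adjusted p 0.0067, and -6.13 without OSE-BPR replicate 1). Postn, periostin, read 7.22, 3.17 and 1.22 CPM against 89.7, 325, 1528 and 141 (-7.07 ± 1.22, adjusted p 3.5e-04). Mmp13, which cleaves collagen, lay between 0.0608 and 0.736 CPM in OSE-BPR and between 19.4 and 192 CPM in Pax8-BPR (-7.79 ± 1.24, adjusted p 1.7e-04). Dcn, decorin, and Pdgfra, a fibroblast receptor, were not called, Dcn with 176 to 210 CPM against 89.4 to 333. Of 11 smooth muscle genes 7 were lower, among them Actg2 at 0.0608 to 0.535 CPM against 24.4 to 129 (-7.48 ± 1.66, adjusted p 0.0023). On the mesenchymal list of 18 genes 8 were lower and 4 higher. Fn1, fibronectin, read 1469, 180 and 33.4 CPM against 8166, 1288, 3936 and 5908 (-3.10 ± 0.92, adjusted p 0.015), with -5.50 without OSE-BPR replicate 1 and an adjusted p of 0.068 without replicate 2. Cdh2, N-cadherin, was higher, at 165, 175 and 215 CPM against 10.4, 30.9, 3.81 and 2.78 (3.95 ± 0.89, adjusted p 0.0025), as was Axl, a receptor kinase, at 348 to 568 CPM against 122 to 216 (1.46 ± 0.27, adjusted p 5.7e-04). Without OSE-BPR replicate 2, and equally without replicate 3, 4 members of the mesenchymal list were lower and 2 higher, and without Pax8-BPR replicate 4 these were 8 and 2.

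Endothelial genes did not move together. Of 15, 7 were lower and 3 higher in OSE-BPR (4 and 2 without OSE-BPR replicate 3). Plvap, a protein of fenestrated capillaries, read 4.88, 2.79 and 1.40 CPM against 65.1, 66.9, 68.5 and 59.5 (-4.43 ± 0.69, adjusted p 1.5e-04), and Vwf 2.49 to 12.4 CPM against 45.8 to 87.0 (-3.34 ± 0.60, adjusted p 4.9e-04). Flt1, the VEGF receptor also known as VEGFR1, read 19.6, 13.8 and 7.60 CPM against 315, 45.8, 200 and 286 (-3.95 ± 0.75, adjusted p 7.4e-04). Kdr, the main VEGF signalling receptor, was higher instead, at 88.6, 125 and 112 CPM against 32.9, 29.9, 29.8 and 23.8 (1.90 ± 0.46, adjusted p 0.0040). Pecam1, a general endothelial marker, read 29.2, 29.8 and 26.9 CPM against 61.5, 75.1, 75.0 and 31.1 (-1.08 ± 0.34, adjusted p 0.021), a call lost without OSE-BPR replicate 2 or 3 or Pax8-BPR replicate 3 (adjusted p 0.053 to 0.075). Cdh5 was not called (adjusted p 0.062).

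Immune genes were lower in OSE-BPR in every list of leukocytes. Of 17 macrophage and monocyte genes 15 were lower and 0 higher, of 12 neutrophil genes 11, of 17 T and NK cell genes 16, and of 10 B and plasma cell genes 9. Macrophage sums were 147 to 612 CPM in OSE-BPR, 2872 to 5240 CPM in Pax8-BPR and 248 to 1404 CPM in Ovgp1-BPR primary tumours. T and NK cell sums were 12.3 to 14.4, 21.3 to 79.1 and 3.39 to 12.7 CPM in the same order, and neutrophil sums 3.89 to 15.2, 162 to 416 and 11.2 to 82.6 CPM. Adgre1, the F4/80 marker, read 8.09, 4.87 and 2.98 CPM against 38.3, 49.6, 55.8 and 56.5 (-3.24 ± 0.59, adjusted p 5.5e-04), and C1qa 56.1, 33.1 and 14.1 CPM against 340, 227, 274 and 264 (-3.00 ± 0.53, adjusted p 4.5e-04). Arg1, an arginase of suppressive macrophages, read 5.89 to 17.9 CPM against 80.0 to 457, and Spp1, osteopontin, 2.19 to 53.2 CPM against 324 to 1524. The neutrophil alarmin S100a8 read 1.00, 0.0547 and 0 CPM against 54.5, 66.0, 29.6 and 37.1 (-7.06 ± 1.40, adjusted p 9.8e-04), and Il1b 0.122 to 0.669 CPM against 15.9 to 93.6 (-6.56 ± 1.09, adjusted p 2.4e-04). T cell genes were scarce in both models, with Cd3e at 0.201, 0.219 and 0 CPM against 0.704, 4.07, 2.91 and 5.57 (adjusted p 0.013, and 0.061 without OSE-BPR replicate 3). The T and NK count was 8 to 10 when any 1 OSE-BPR tumour was left out.

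The B and plasma cell list had a median log2 fold change of -9.26 (-6.53 with genes at 0 in OSE-BPR set at their bounds). Igkc, the kappa light chain, read 0.134, 0.109 and 0 CPM against 305, 1931, 1828 and 607 (-13.70 ± 3.41, adjusted p 0.0049), and Ighm, the IgM heavy chain, 1.20, 0.875 and 0.608 CPM against 231, 975, 2746 and 777 (-10.36 ± 2.41, adjusted p 0.0032). Ighg2b had 0 counts in OSE-BPR and read 7.11, 551, 83.1 and 11.8 CPM in Pax8-BPR, at least 895-fold lower. Ms4a1, the CD20 marker of B cells, had 0 counts against 0.352, 9.57, 5.65 and 2.78 CPM, at least 25.2-fold lower, and Cd79a, a part of the B cell receptor, overlapped at 0.0608 to 4.62 CPM against 2.96 to 16.1 and was not called. Immunoglobulin genes form large families that share sequence, so these levels are uncertain. In allografts Igkc was called (adjusted p 0.025) and read 0 to 2.90 CPM against 2.84 and 130 CPM.

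Chemokine, interferon and antigen presentation genes were lower as well. Of 22 chemokines 18 were lower and 0 higher, including Cxcl9, which attracts T cells, at 0.0608 to 0.219 CPM against 2.82, 14.3, 6.34 and 47.7 (-7.15 ± 1.62, adjusted p 0.0026), and Ccl8 at 0.182 to 0.401 CPM against 7.47 to 61.9 (-6.69 ± 1.00, adjusted p 9.8e-05). Chemokine sums were 46.1 to 162 CPM in OSE-BPR, 738 to 1516 CPM in Pax8-BPR, 119 to 464 CPM in Ovgp1-BPR and 813 to 858 CPM in Ad-BPR primary tumours. Of 28 interferon response genes 19 were lower and 0 higher, with a median of -2.26. In the same order the interferon sums were 846 to 1112, 1406 to 2898, 866 to 1552 and 777 to 1165 CPM. Oas2, an antiviral enzyme, read 2.94, 2.13 and 1.34 CPM against 17.0, 106, 25.8 and 74.1 (-4.70 ± 0.92, adjusted p 8.7e-04). Of 13 genes of MHC class I and antigen processing 11 were lower, a count of 3 to 7 without any 1 OSE-BPR tumour and of 6 without Pax8-BPR replicate 4. Their sum was 1177 to 2879 CPM in OSE-BPR, 3595 to 17133 CPM in Pax8-BPR, 1001 to 4984 CPM in Ovgp1-BPR and 3853 to 4519 CPM in Ad-BPR. H2-K1, a classical class I heavy chain, read 441, 191 and 134 CPM against 1889, 732, 3576 and 4972 (-3.45 ± 0.92, adjusted p 0.0076), and Nlrc5, the class I transactivator, 2.86 to 19.2 CPM against 33.8 to 247 (-3.54 ± 0.94, adjusted p 0.0074). FVB and C57Bl/6 mice carry different H2 haplotypes, and the reads were aligned to the C57BL/6 reference, so a part of the H2 differences cannot be told apart from strain. Between these 2 models the immune lists, the stromal lists and the strain label differed together. The part of each in the others' result was not tested.

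**Figure D3:**
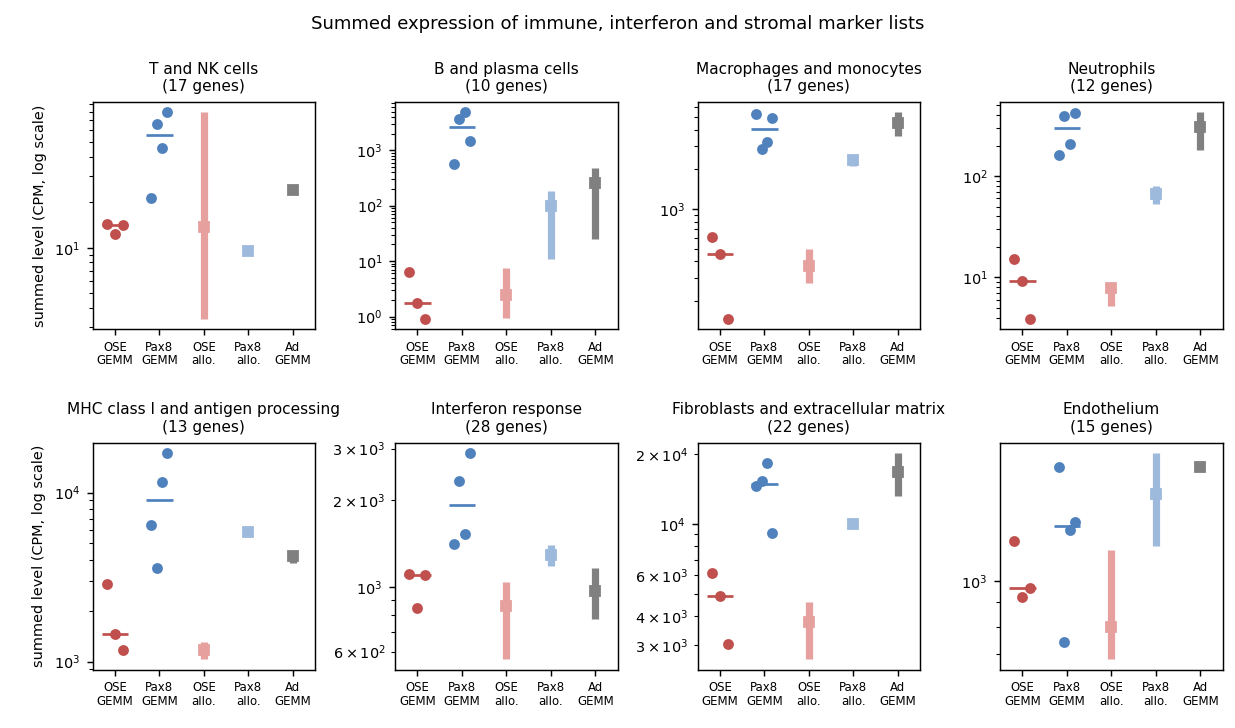
Summed level of 8 marker lists (CPM, log scale). Points are the 3 OSE-BPR and 4 Pax8-BPR primary tumours with a line at the median; bars for allografts (5 OSE-BPR, 2 Pax8-BPR) and 2 Ad-BPR primary tumours run from the lowest to the highest library with a square at the median. Macrophage sums are 147 to 612 CPM in OSE-BPR and 2872 to 5240 CPM in Pax8-BPR, while endothelial sums overlap.

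Of 34 Wnt genes 6 were higher and 10 lower in OSE-BPR, beside 16.1% higher and 16.7% lower over all genes. The balance turned to 11 higher and 8 lower without Pax8-BPR replicate 2 and to 10 higher and 8 lower in both TPM fits, and it was 5 and 6 without OSE-BPR replicate 2. Wnt6 and Wnt2b, ligands, were higher, at 173, 359 and 209 CPM against 0.845, 27.8, 0.0529 and 1.23 (5.04 ± 1.20, adjusted p 0.0037, and 8.44 without Pax8-BPR replicate 2) and at 10.2, 166 and 181 CPM against 0.423 to 1.06 (7.42 ± 1.36, adjusted p 5.6e-04). Wnt7a, which maintains the Müllerian epithelium, was at least 353-fold lower, and Dkk2, a secreted modulator, read 0.426 to 0.985 CPM against 10.4 to 95.9 (-6.08 ± 1.12, adjusted p 5.8e-04). Wif1, a Wnt inhibitor, was called lower (adjusted p 0.040) only through Pax8-BPR replicate 2, which read 213 CPM against 0 to 0.159 in the other 3 Pax8-BPR tumours and 0.182 to 0.821 in OSE-BPR. Without it the log2 fold change turned from -6.50 to 3.21 (adjusted p 0.12), and it was not called without any 1 OSE-BPR tumour either (0.086 to 0.13). Of 26 BMP, activin and TGF-beta genes 5 were higher and 7 lower, beside the same shares of all genes. These were 3 and 6 without OSE-BPR replicate 3 and 3 and 7 without Pax8-BPR replicate 3. Bmp7 was higher, at 51.3, 51.9 and 143 CPM against 1.59 to 8.97 (4.42 ± 0.78, adjusted p 4.2e-04), and the BMP antagonist Grem1 had 0 counts in OSE-BPR against 1.97, 41.7, 4.49 and 20.0 CPM, at least 93.4-fold lower. Id2, a direct BMP target, read 1.58 to 9.30 CPM against 22.9 to 66.3 (-3.09 ± 0.71, adjusted p 0.0029).

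Of 16 Notch genes 6 were lower and 1 higher, or 3 and 1 without OSE-BPR replicate 2 and 1 and 1 without replicate 3. Notch3, a receptor often amplified in human serous carcinoma, read 29.5, 12.8 and 9.55 CPM against 111, 67.2, 108 and 127 (-2.58 ± 0.58, adjusted p 0.0026), and Dtx1, a ubiquitin ligase of the pathway, 151, 64.7 and 97.6 CPM against 1.07 to 9.79 (4.86 ± 1.13, adjusted p 0.0032). On the list of 31 growth factor genes 9 were lower and 3 higher (4 and 1 without OSE-BPR replicate 2, 5 and 2 without replicate 3, and 1 higher without OSE-BPR replicate 1 or Pax8-BPR replicate 1, 3 or 4). Egfr read 10.4, 6.95 and 1.89 CPM against 89.5, 27.4, 99.8 and 119 (-3.71 ± 0.70, adjusted p 6.8e-04), and its ligand Hbegf 1.58 to 3.34 CPM against 16.6 to 51.3 (-3.35 ± 0.60, adjusted p 4.7e-04). Fgf1 read 0.109 to 3.34 CPM against 20.3 to 226 (-6.60 ± 1.46, adjusted p 0.0022), while Fgf18 was higher, at 12.8 to 17.2 CPM against 0.423 to 2.86 (3.22 ± 0.48, adjusted p 9.8e-05).

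Enzymes that make retinoic acid differed in direction. Aldh1a2 read 785, 228 and 667 CPM in OSE-BPR against 21.7, 54.9, 32.6 and 33.8 (3.97 ± 0.81, adjusted p 0.0012), and Aldh1a1 754, 351 and 339 CPM against 131, 12.3, 3.96 and 3.85 (3.68 ± 0.95, adjusted p 0.0061, and 6.16 without Pax8-BPR replicate 1). Aldh1a3 was lower, at 6.82, 6.84 and 2.07 CPM against 375, 18.8, 436 and 7.87 (-5.32 ± 1.22, adjusted p 0.0028). The receptor Rarg was lower too, at 30.3 to 39.5 CPM against 82.5 to 150 (-1.82 ± 0.27, adjusted p 9.9e-05). Over the 16 genes of the list 3 were higher and 4 lower, close to the shares over all genes.

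Few cell cycle genes were called. Of 34 E2F targets and cycle genes 2 were lower and 0 higher, with a median log2 fold change of 0.05. The 2 were Cdc45, a replication helicase factor (16.5 to 23.8 CPM against 36.5 to 54.1, -1.19 ± 0.24, adjusted p 0.0012), and Ccne1, cyclin E1 (3.22 to 7.02 CPM against 9.88 to 20.6, -1.28 ± 0.44, adjusted p 0.031), which was not called without OSE-BPR replicate 2 or 3 or Pax8-BPR replicate 2 (adjusted p 0.068, 0.15 and 0.096). The list's lower calls numbered 1 to 4 when single tumours were left out. Cdkn1b, the CDK inhibitor p27, was higher in OSE-BPR, at 261, 288 and 383 CPM against 69.2, 87.7, 191 and 112 (1.43 ± 0.30, adjusted p 0.0014). Among 20 p53 targets 7 were lower and 2 higher. Phlda3, an Akt inhibitor, read 4.44 to 9.24 CPM against 25.2 to 58.0 (-2.24 ± 0.56, adjusted p 0.0051), and Plk2 7.48 to 22.5 CPM against 33.0 to 105 (-2.09 ± 0.44, adjusted p 0.0016). Cdkn1a, p21, read 20.5, 95.0 and 52.2 CPM against 165, 49.2, 308 and 325, with overlap (-1.92 ± 0.73, adjusted p 0.048), and lost its call without OSE-BPR replicate 1 or 3 or Pax8-BPR replicate 1, 3 or 4 (adjusted p 0.057 to 0.15). Sesn1, a stress sensor, was higher, at 60.2, 71.7 and 114 CPM against 12.3 to 23.6 (2.18 ± 0.30, adjusted p 4.8e-05). Of 26 homologous recombination and Fanconi genes 5 were higher and 2 lower, beside 16.1% higher and 16.7% lower over all genes. These were 1 and 1 without OSE-BPR replicate 3, 3 and 2 without replicate 2, and 3 and 3 without Pax8-BPR replicate 1. Fancc read 5.63 to 7.24 CPM against 16.7 to 36.6 (-2.02 ± 0.31, adjusted p 1.4e-04). Trp53bp1, which Brca1 opposes in repair, read 131 to 168 CPM against 64.6 to 101 (0.95 ± 0.22, adjusted p 0.0030).

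**Figure D4:**
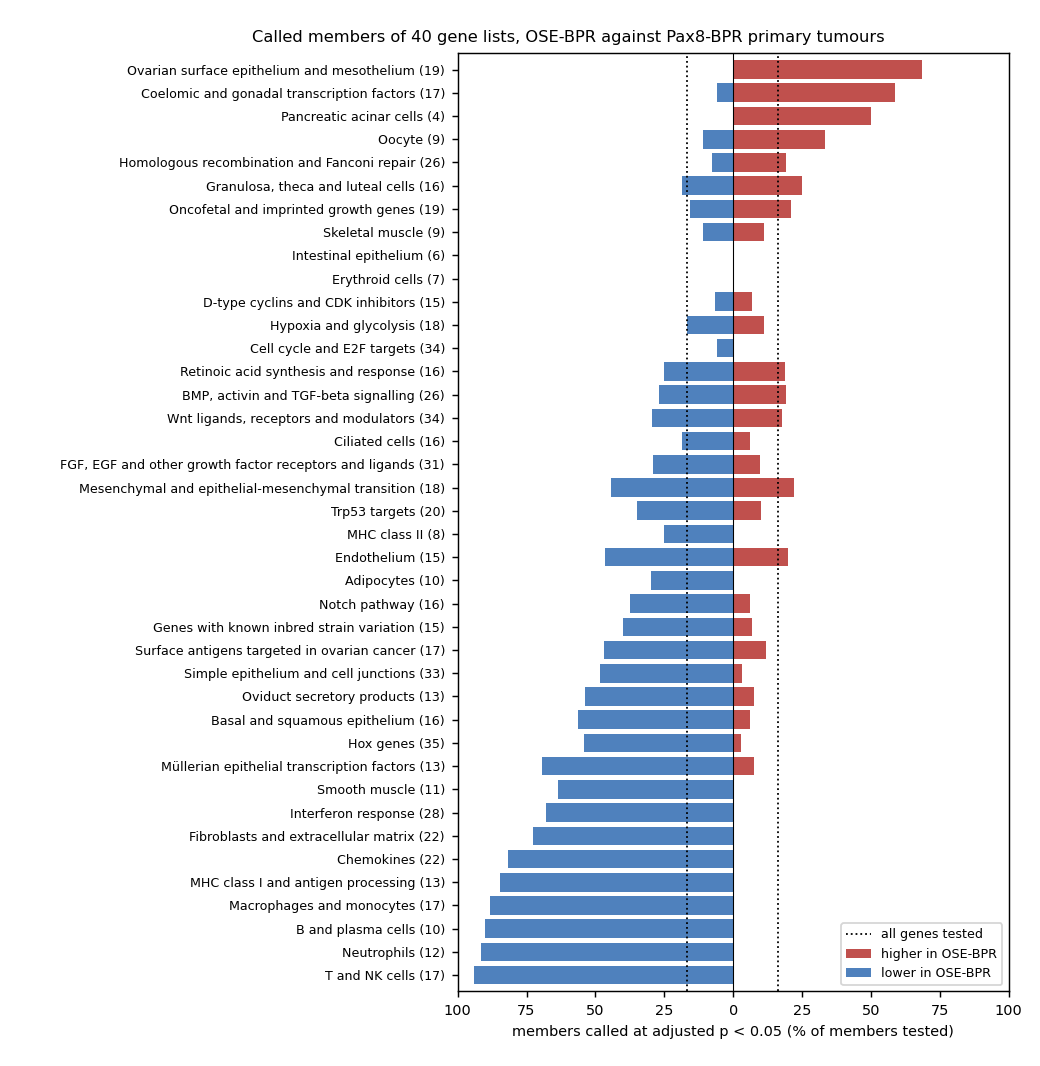
Share of the tested members of each list (number in brackets) called higher (right) or lower (left) in OSE-BPR primary tumours, in percent. Dotted lines mark the shares over all 20000 genes, 16.1% higher and 16.7% lower; the leukocyte, chemokine, matrix and Müllerian lists lie past the left line and the surface epithelium and coelomic lists past the right line.

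Surface antigens under study as drug targets in ovarian cancer were lower in OSE-BPR at 8 of 17 and higher at 2, Axl and Muc16. Vtcn1, B7-H4, read 0.736, 0.602 and 0.0608 CPM against 63.2, 65.8, 21.9 and 36.7 (-6.63 ± 1.05, adjusted p 1.7e-04). Slc34a2, NaPi2b, read 2.88, 1.42 and 0.0608 CPM against 169, 21.5, 114 and 51.1 (-5.94 ± 1.56, adjusted p 0.0072). Cdh6 was uneven within Pax8-BPR, at 98.0, 1.93, 191 and 0.482 CPM against 0.134, 1.26 and 0.122 CPM (-7.10 ± 1.81, adjusted p 0.0057), with overlap between the groups.

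The remaining lists covered MHC class II, hypoxia and markers of other tissues. Of 8 class II genes 2 were lower in OSE-BPR, a count of 4 with DESeq2, both TPM fits and the fit of the 7 libraries, of 1 without OSE-BPR replicate 2 or 3 or Pax8-BPR replicate 4 and of 4 without OSE-BPR replicate 1. H2-Eb1, a class II chain, read 4.35, 0.219 and 1.40 CPM against 159, 173, 221 and 357 (-6.85 ± 1.42, adjusted p 0.0014). Of 18 hypoxia and glycolysis genes 2 were higher and 3 lower, not above the shares of 16.1% and 16.7% over all genes. These became 1 and 6 without Pax8-BPR replicate 2, 1 and 1 without OSE-BPR replicate 2, and 0 and 1 without OSE-BPR replicate 3. Pfkfb4, a regulator of glycolysis, read 7.24 to 15.9 CPM against 24.0 to 197 (-3.03 ± 0.64, adjusted p 0.0016). Of 15 D-type cyclins and CDK inhibitors 1 was higher and 1 lower, and without OSE-BPR replicate 1 these were 2 and 5. Of 10 adipocyte genes 3 were lower, or 5 without Pax8-BPR replicate 4, 6 in a fit of the 12 primary tumours and 7 with DESeq2. The median log2 fold change of that list was -5.07, with Adipoq, the defining hormone, at 16.9 and 20.7 CPM in Pax8-BPR replicates 2 and 3, at 0.211 and 0.321 CPM in replicates 1 and 4, and at 0 to 0.201 CPM in OSE-BPR (not called, adjusted p 0.063). The summed adipocyte level was 110 to 265 CPM in OSE-BPR and 133 to 467 CPM in Pax8-BPR, and its part in the matrix and class II results was not tested. Of 9 skeletal muscle genes 1 was higher and 1 lower, and the muscle enzyme Ckm stayed at or under 0.880 CPM in all 7 tumours. Of 4 pancreatic acinar genes 2 were higher, among them Pnlip, a lipase, at 8.43, 2.84 and 4.68 CPM against 0 to 0.220 (5.84 ± 0.96, adjusted p 3.0e-04). None of 6 intestinal and 7 erythroid genes was called.

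Genes known to vary between inbred strains were read as a list. Their summed level was 317 to 358 CPM in OSE-BPR and 567 to 742 CPM in Pax8-BPR. Ovgp1-BPR primary tumours, labelled C57Bl/6, read 300 to 460 CPM and Ad-BPR 536 to 723 CPM. A sum is weighted toward its most abundant members, so it does not show whether single members follow the strain label. Of 15 members tested, 6 were lower and 1 was higher in OSE-BPR. Trim12a was also among the genes picked above by strain label, with at least 12.0 CPM in every C57Bl/6 tumour of the series. Trim12a (chr7:104299894-104315466, minus strand) read 0, 0.0547 and 0.122 CPM against 21.7, 24.2, 20.8 and 23.9, a ratio of 0.00266 (95% exact interval 0.000549 to 0.00780, counting error only), and was at 0 in all 5 OSE-BPR allografts. Apobec3, a retroviral restriction factor, read 83.2, 27.3 and 37.8 CPM against 343, 198, 346 and 238 (-2.51 ± 0.52, adjusted p 0.0014). Entpd4 read 17.2 to 21.5 CPM against 62.3 to 87.6 (-1.88 ± 0.29, adjusted p 1.4e-04) and its near copy Entpd4b 16.3 to 17.6 against 49.3 to 87.6, a pair whose reads can be shared between them. Hc, complement C5, read 0 to 0.201 CPM against 0.423 to 1.98 (-3.44 ± 1.08, adjusted p 0.020), and was not called without OSE-BPR replicate 2 or 3 (adjusted p 0.051 and 0.083). H2-Ea-ps, the class II pseudogene, was the member higher in OSE-BPR, at 1.74, 0.219 and 0.487 CPM against 0 counts in Pax8-BPR, at least 4.69-fold, with an adjusted p of 0.035 that became 0.054 to 0.063 without OSE-BPR replicate 3 or any 1 Pax8-BPR tumour. Nnt, Wdfy1 and Glo1 were not called.

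Allografts of the same 2 models, which share no library with the primary tumours, were compared next. Of 20000 genes 5430 (27.1%) were called, 2585 (12.9%) higher and 2845 (14.2%) lower in OSE-BPR, and 2949 and 2812 without Pax8-BPR allograft replicates 1 and 2. Of the genes called in primary tumours, 96.0% had the same sign in allografts, 3807 were called there in the same direction and 3 in the opposite one. The shared calls made up 58.1% of the primary tumour calls and 70.1% of the allograft calls. Log2 fold changes correlated across genes with Pearson's r of 0.79 and Spearman's rho of 0.77, with genes not independent. Allografts keep the strain difference of their models. A test of the interaction between model and kind of tumour called 0 genes with edgeR (1487 at an unadjusted p under 0.05), 87 with DESeq2 and 1 with each TPM fit, and 12 with edgeR without Pax8-BPR allograft replicate 1, so a different gap in 1 kind was not shown for the genes that follow. Pax8 read 0 to 2.11 CPM in OSE-BPR allografts and 89.1 and 91.1 CPM in Pax8-BPR allografts, Wt1 744 to 1003 CPM against 240 and 264 CPM, and Peg3 822 to 2394 CPM against 2.99 and 4.87 CPM. Myh8 (log2 fold change 0.48, adjusted p 0.81) and H19 (0.60, adjusted p 0.71) were not called in allografts, nor was Trp53 (-0.30, adjusted p 0.41). Macrophage sums were 273 to 498 CPM against 2138 and 2585 CPM and B and plasma cell sums 0.941 to 7.63 CPM against 11.0 and 186 CPM. The T and NK cell sums overlapped, at 3.39 to 79.1 CPM against 8.91 and 10.0 CPM, and of those 17 genes 3 were lower and 1 higher in OSE-BPR allografts. In the other leukocyte lists 8 of 17 macrophage, 9 of 12 neutrophil and 2 of 10 B and plasma cell genes were lower and 0 higher.

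**Figure D5:**
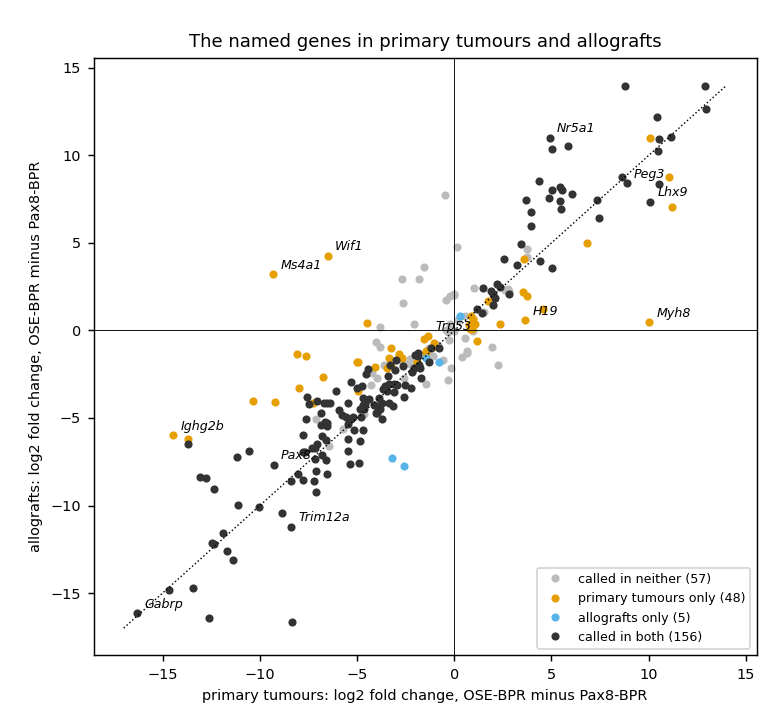
Log2 fold change (OSE-BPR minus Pax8-BPR) of the 266 named genes in primary tumours (x axis) and allografts (y axis), coloured by the comparison in which each was called; the dotted line marks equal values. Of the named genes 156 were called in both and 48 in primary tumours only, and Wif1 stands in the upper left with opposite signs; the fitted values of genes with 0 counts in a group, such as Gabrp and Ms4a1, depend on a prior count.

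Ad-BPR primary tumours share the adenoviral Cre and the 3 alleles with OSE-BPR and the strain and organ of origin with Pax8-BPR. This comparison was added after the data were seen, rests on 2 tumours, and shares libraries with the main one, so values are given side by side. Between OSE-BPR and Ad-BPR 4007 of 20000 genes (20.0%) were called, 9.47% higher and 10.6% lower in OSE-BPR, with 2633 calls and 2195 calls without OSE-BPR replicates 2 and 3. Between Ad-BPR and Pax8-BPR edgeR called 0 genes (0%), with 1531 at an unadjusted p under 0.05, 52 called by DESeq2 and 8 with log2(TPM + 1). Spearman's correlation across genes was 0.907 to 0.951 between Ad-BPR and Pax8-BPR tumours and 0.792 to 0.852 between Ad-BPR and OSE-BPR tumours. Against Ad-BPR, Pax8 was lower in OSE-BPR by a log2 fold change of -9.59 (adjusted p 6.9e-04), while Foxa2, with 0 counts in OSE-BPR, read 12.6 and 24.6 CPM in Ad-BPR. Amhr2 (9.20, adjusted p 5.9e-04), Upk3b (7.39, adjusted p 0.0025), Gata4 (6.88, adjusted p 0.0013) and Peg3 (7.73, adjusted p 0.021) were higher. Wt1 (1.80, adjusted p 0.062) and Krt5 (-4.05, adjusted p 0.15) were not called against Ad-BPR, which read 0.793 and 20.0 CPM of Krt5. The interferon list had a median log2 fold change of -1.13 for OSE-BPR minus Ad-BPR, of -1.29 for Ad-BPR minus Pax8-BPR and of -2.26 for OSE-BPR minus Pax8-BPR. For the fibroblast and matrix list these were -2.88, 0.10 and -2.92.

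Normal ovary and oviduct, which also share no library with the tumours, differed at 9191 of 17334 genes tested (53.0%), 24.5% higher and 28.5% lower in ovary. Whole ovary holds little surface epithelium beside follicles and stroma, and oviducts 1 and 3 held ovarian genes that oviduct 2 lacked: Nr5a1 read 73.5, 1.34 and 48.5 CPM in oviduct and 343 to 432 CPM in ovary. Of 2739 genes higher in OSE-BPR tumours that were tested in both, 974 (35.6%) were higher in ovary and 513 (18.7%) lower, beside 24.2% and 28.3% of all 16698 genes tested in both. Of 2676 genes lower in OSE-BPR, 1241 (46.4%) were lower in ovary and 368 (13.8%) higher. Those shared genes made up 24.1% of the genes higher and 26.3% of those lower in ovary. Pax8 read 0.170 to 1.24 CPM in ovary and 86.9 to 118 CPM in oviduct, and all 12 Müllerian factors tested there were lower in ovary, Emx2 among them. Ltf read 0.137 to 0.793 CPM in ovary and 1188 to 2092 CPM in oviduct. Markers of surface epithelium and mesothelium were not higher in ovary as a list (4 of 19 higher and 15 lower), with Upk3b at 50.9 to 84.0 CPM against 104 to 210 CPM and Wt1 at 94.2 to 100 CPM against 146 to 186 CPM. Peg3 read 33.0 to 36.6 CPM in ovary and 28.7 to 33.6 CPM in oviduct and was not called (adjusted p 0.14).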

How the data were processed

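RNA was extracted with an RNeasy kit and sequenced, per the labels. The deposited expected counts per gene were made by the authors with cutadapt 1.18, STAR 2.7.0f and RSEM 1.3.1 on mm10 (GRCm38), with bcl2fastq and Picard also named, per the submitters' processing notes. The deposited TPM values are the authors' second RSEM table of the same 32 libraries. Strandedness and library kit are not given in the sources used here, so genes that overlap on opposite strands are uncertain.

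Expected counts were rounded, since 6.72% were not whole. All 26 tumour libraries entered 1 edgeR 4.0.16 fit (R 4.3.3, TMM scaling, quasi-likelihood F test), so that they share 1 estimate of the spread. The filter (minimum count 10, minimum total 15) kept 20000 genes and 99.94% of counts. The 6 normal libraries were fitted apart, with 17334 genes. P-values were adjusted by Benjamini-Hochberg over all genes tested, at a threshold of 0.05, and SE is the absolute log2 fold change over the square root of F. A gene with 0 counts in 1 group is given as a bound against 3 counts per library. Intervals cover counting error only. The steps were tested on simulated counts.

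Genes were named by rule: the 12 called genes per direction whose log2 fold change was largest, given non-overlapping groups and a mean of 10 CPM or more in whichever model was higher (predicted genes and receptor segments left out), then engineered genes, up to 4 called members of each list and 2 against its direction, every member of 4 lists, and cell type markers. The members and lists were chosen with earlier results of these data known. Alternatives were DESeq2 1.42.0, RLE factors, no filter, fits of 7 or 12 primary tumours, limma 3.58.1 on log2(TPM + 1) and log2(TPM + 0.1), and leaving out each library. Allografts of Ad-BPR and Ovgp1-BPR entered only the shared estimate of spread and the choice of genes that split by strain label. Within each model, no pair of the 7 primary tumours was alike within sampling noise. A few named genes counted in the totals are not reported here.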

Additional observations from a re-analysis of the deposited data

Results flagged for a closer look

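Among the 4 Pax8-BPR primary tumours, 19 of 266 named genes had 1 tumour set apart from the other 3, with a gap over the range above Dixon's critical value for 4 samples. Chance alone puts about 1 in 20 groups past that value. Replicate 2 was the tumour apart at 11 of the 19 genes, replicate 4 at 4, and replicates 1 and 3 at 2 each.

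Replicate 2 was the lowest for Adgra1 (3.14 CPM against 49.6 to 60.0), Atp10b (13.9 against 131 to 139), Cdh1 (296 against 1175 to 1299), Krt8 (235 against 1349 to 1824), Csf1r, the macrophage growth factor receptor (136 against 267 to 290), Pdgfb, a growth factor (32.6 against 226 to 260), and Wt1 (12.7 against 214 to 311). It was the highest for Hoxb9 (112 CPM against 3.91 to 5.78), Wif1 (213 against 0 to 0.159), Wnt7a (203 against 15.6 to 22.6) and Pax2, a relative of Pax8 (7.76 against 0 in the other 3).

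Replicate 4 was the lowest, among others, for Cdh5 (34.4 CPM against 72.5 to 77.0), Col1a1 (1783 against 3396 to 3853) and Hoxd10 (0.268 against 2.32 to 3.08). Replicate 1 was the highest for Cnn1, a smooth muscle protein (54.5 CPM against 23.8 to 27.3), and Hoxc5 (4.30 against 1.55 to 1.82). Replicate 3 was the highest for Phlda3 (58.0 CPM against 25.2 to 28.6) and the lowest for Upk3b (1.16 against 23.0 to 26.9).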

How the results depend on the processing

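The 6552 calls between primary tumours became 3676 when the 7 libraries were fitted alone, and 4000 to 6551 without single tumours. Allograft calls were 2812 to 5162 without single allografts and up to 5699 without single primary tumours. The interaction count of 0 was 87 with DESeq2, 1 with log2(TPM + 0.1), 1 with log2(TPM + 1), and 0 to 12 without single libraries. Between Ad-BPR and Pax8-BPR, a comparison chosen after seeing the data, 0 became 52 with DESeq2 and 8 with log2(TPM + 1). The causes were not tested. Of the 204 called named genes 138 kept the call in all 14 settings and 66 lost it in at least 1. Wif1 reversed to 3.21 without Pax8-BPR replicate 2 and was -6.92 without replicate 1. The share of calls higher in OSE-BPR rose from 49.1% to 63.9% on log2(TPM + 1), beside a shift of 0.19. With the animal as replicate block, ovary against oviduct gave 7971 calls in place of 9191. No paired analysis was possible because the labels tie no OSE-BPR tumour to a Pax8-BPR tumour. At this depth, genes at 0 are known only to lie under about 3 counts per library.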
